A study of Mus musculus with 24 samples.

Results

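Caloric restriction in old age was examined by setting 24-month-old calorically restricted mice against 24-month-old mice fed ad libitum. The groups were taken from the sample type given for each array. They hold 14 of the 24 arrays of the study, and arrays that carry the same name were averaged as 1 mouse, which gave 5 restricted mice on 7 arrays and 6 ad libitum mice on 7 arrays. These are 11 of the 17 mice of the study. All were male B6D2F1, a hybrid mouse strain, from the colony maintained for the National Institute on Aging, and the tissue was gastrocnemius, a mostly fast-twitch muscle of the calf. How strong the restriction was, when it began, and at what hour and how long after a meal the muscle was taken were not given in the sources. Young mice of 8 months fed ad libitum entered the normalization but not the main test, and a fit with them added is named where it is used. The labels do not say that each name is a separate animal, so the p-values reflect spread among samples that may be technical.

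Caloric restriction is a sustained cut in food intake without malnutrition, and in rodents it delays many changes of old age. Mice on a restricted ration usually eat their meal soon after it is given and then fast until the next one, so enzymes of fatty acid synthesis and of fatty acid burning can both follow the meal. Old muscle gains immune cells and inflammatory transcripts, loses part of its innervation and shows lower mitochondrial function, and the title of the study places its question at the mitochondrion.

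Expression was read on Illumina bead arrays as a signal per probe, and every level below is a log2 signal after background correction and quantile normalization. At a detection p under 0.01, restricted arrays had 13625 to 14401 of 45281 probes detected and ad libitum arrays 13974 to 14890. Repeated arrays of 1 mouse deviated together from the mean of the 14 arrays, with a median correlation of 0.749, against -0.0449 for different mice of one group. Of the 13 measured myofibre markers none passed the test described next, with list scores between -0.09 and 0.11 in restricted and between -0.11 and 0.09 in ad libitum mice, where a list score is the mean deviation of the members from their mean over the 11 mice. Some mice stood apart. Ad libitum mouse 1 had the highest score for interferon-stimulated genes, 0.81 against 0.26 in the next mouse of its group. Ad libitum mice 5 and 6 had denervation scores of 0.49 and 0.90, while the other mice of the group ran from -0.18 to 0.01. Slow fibre genes were low in ad libitum mice 4 and 5 and in restricted mouse 5, with scores of -1.28, -1.53 and -1.27, and between 0.16 and 1.07 in the others. In whole muscle, fewer cells of a type and less RNA per cell cannot be told apart.

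Of 8688 genes tested, 24 differed between the diets, and 20 of them were lower in restricted mice. The test was limma with Benjamini-Hochberg adjustment at a threshold of 0.05. The 24 genes are 0.276% of those tested, the 20 lower genes 0.230% and the 4 higher genes 0.0460%. At an unadjusted p under 0.05 there were 1397 genes, or 16.1%, the share to set beside such counts in the lists below. In 209 genes, or 2.41%, the groups did not overlap, which means that all 5 restricted mice lay above or below all 6 ad libitum mice. Of these, 53 were higher (0.610%) and 156 lower (1.80%) under restriction, and they include the 24. Over all genes the median log2 difference, restricted minus ad libitum, was -0.02, with 3878 genes higher and 4810 lower. Across the 4 chips, each of which held arrays of both groups, the 24 genes had the same direction within every chip. They were chosen on these arrays. Chip 3 held 1 ad libitum array, of mouse 6, and chip 4 held 1 restricted array, of mouse 2. Restricted mice 2 and 5 and ad libitum mouse 3 had arrays on more than 1 chip, so the chips are not independent. The exact permutation test over the 462 regroupings of 11 mice gave a two-sided p of 0.00216 for 17 of the 24 genes, the smallest it can give, and 0.00433 for the other 7. The 24 genes were called on the same mice and none overlaps between the groups. A p near the smallest thus follows from how they were chosen and is not further support. Adding the 6 young mice to the fit raised the count to 286 genes, 3.29% of those tested (83 higher, 0.955%, and 203 lower, 2.34%), which include the 24. The count depended on single mice. It was 8, 9 and 10 without ad libitum mouse 2, 5 or 6, and 44 and 37 without ad libitum mouse 3 or 4. Without restricted mouse 1, 2, 3 or 4 it was 12, 49, 4 or 8. Csprs, C4a, Kif5c and Mthfd2 passed without each of the 11 mice in turn. Of these, Csprs and Kif5c were detected on no array of restricted mice and entered the test through ad libitum arrays alone.

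**Figure D1:**
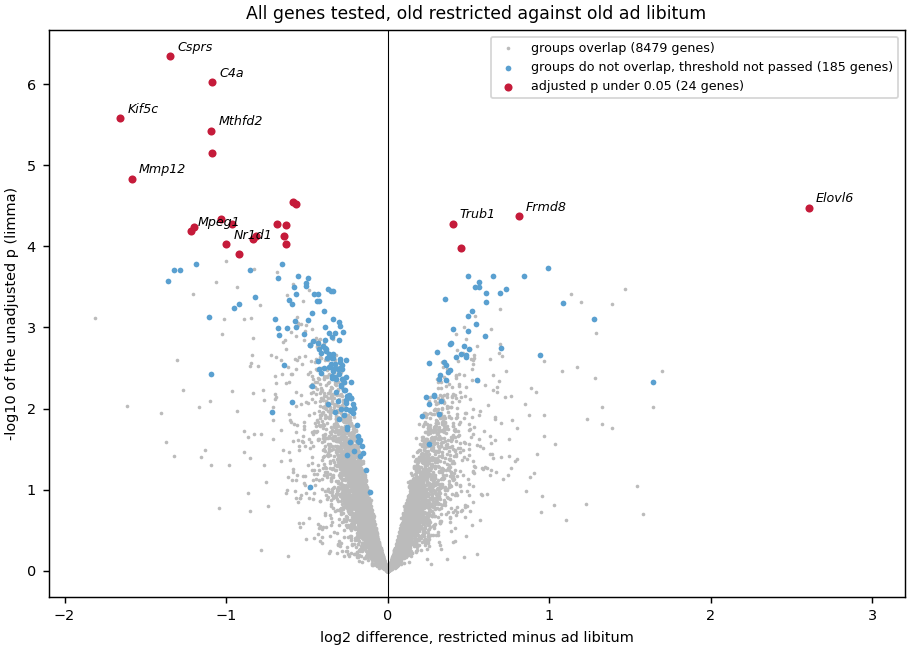
Each point is a gene, with the log2 difference between restricted and ad libitum mice on the horizontal axis and -log10 of the unadjusted limma p on the vertical axis. Red points are the 24 genes past the threshold, blue points the 185 other genes whose groups did not overlap, and most coloured points lie on the left, lower under restriction.

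The gene with the largest difference that passed was Elovl6, which encodes the enzyme that elongates palmitate to stearate, a step of fatty acid synthesis. In restricted mice 1 to 5 its log2 values were 7.32, 8.57, 9.96, 8.00 and 8.43, and in ad libitum mice the lowest was 5.19, the median 5.67 and the highest 6.98. Each restricted mouse lay above each ad libitum mouse, and the spread was wide in both groups, with SDs of 0.97 and 0.69. The difference was 2.61 ± 0.42 (SE), or 6.10-fold (limma, adjusted p = 0.0310). A second probe of Elovl6 gave 2.04, also without overlap. The probe was detected on 7 of 7 arrays of restricted mice and on 4 of 7 of ad libitum mice. Elovl6 missed the threshold without ad libitum mouse 2 or 5 or restricted mouse 3 or 4, at adjusted p-values of 0.0567, 0.0650, 0.0527 and 0.0549, with differences of 2.23 to 2.72.

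The promoter window of Elovl6 is shown because it belongs to the lipid gene that passed. It is from RefSeq, build GRCm38.p6, chr3:129532136-129532435, plus strand, 300 bases that end shortly after the start of the gene. Capitals mark the single match to NAGGTCA, a shortened form of the element bound by Nr1d1 and the Ror receptors. The Elovl6 window holds it on the opposite strand, at -193 from the start site. The window of Insig1, a regulator of sterol sensing that did not pass, is set beside it because it holds 2 of the motifs searched, and it was chosen after its values were seen, chr5:28071162-28071461, plus strand, with its match at -106, which overlaps an E-box, CACGTG, at -101.
Elovl6: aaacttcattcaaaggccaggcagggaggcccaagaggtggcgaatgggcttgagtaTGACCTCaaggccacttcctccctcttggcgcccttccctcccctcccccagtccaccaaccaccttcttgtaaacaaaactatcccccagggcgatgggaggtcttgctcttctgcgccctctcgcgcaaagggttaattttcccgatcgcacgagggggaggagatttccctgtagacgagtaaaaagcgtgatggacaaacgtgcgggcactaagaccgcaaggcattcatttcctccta
Insig1: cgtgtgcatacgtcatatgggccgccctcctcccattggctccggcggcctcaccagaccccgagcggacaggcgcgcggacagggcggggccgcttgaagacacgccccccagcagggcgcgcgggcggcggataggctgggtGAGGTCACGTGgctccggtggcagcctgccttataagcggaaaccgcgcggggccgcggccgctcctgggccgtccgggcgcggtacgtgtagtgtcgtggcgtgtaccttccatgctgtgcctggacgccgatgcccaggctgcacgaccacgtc
On either strand NAGGTCA was found in the windows of 18.09% of 27025 genes, CACGTG in 8.093% and TCACNCCAC, searched for the sterol response element, in 1.436%. Of 26 measured lipid synthesis genes 19 had a window. Of these 7 held NAGGTCA, 4 held CACGTG and 1 held TCACNCCAC. The windows of Fasn and Nr1d1 held none of the 3. In the full element bound by Nr1d1 and the Ror receptors A/T-rich letters precede AGGTCA, but N stood for any base in the search. That base is G in the matches of Elovl6 and Insig1. A match of letters is a description of the sequence and not a bound site.

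Lipid synthesis genes were mostly higher in restricted mice. Of 26 measured members of this list, which runs from citrate export and fatty acid synthesis to desaturation, triglyceride and sterol genes, 24 were higher and 2 lower, 1 passed (Elovl6), and the groups did not overlap in 2. The 2 without overlap are 7.69% of the list, against 2.41% of all genes tested, of which 0.276% passed. The median log2 difference was 0.28, against -0.02 over all genes tested, and it stayed between 0.24 and 0.37 when each mouse was left out in turn. Within the 4 chips it ran from 0.15 to 0.52. With young mice in the fit 6 members passed, all higher, where 3.29% of all genes passed.

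Scd1, the desaturase that makes oleate from stearate, was at 13.87, 14.77, 15.04, 14.46 and 14.81 in restricted mice 1 to 5. In ad libitum mice its lowest value was 12.52, the median 13.47 and the highest 14.19. Restricted mouse 1 lay below ad libitum mouse 4, and the difference of 1.20 ± 0.26 (SE) missed the threshold (limma, adjusted p = 0.0598). Fasn, the fatty acid synthase, was at 5.91, 6.60, 6.98, 5.96 and 6.23 in restricted mice and between 5.41 and 5.83, with a median of 5.65, in ad libitum mice. The groups did not overlap, but Fasn was detected on 6 of 7 arrays of restricted and on 1 of 7 of ad libitum mice, and its difference of 0.70 did not pass (adjusted p = 0.102). Slc25a1, the mitochondrial citrate exporter that supplies the carbon for fatty acid synthesis, differed by 1.17 ± 0.32 (SE, adjusted p = 0.118), with values of 8.11, 9.60, 10.23, 8.71 and 9.64 in restricted mice and up to 8.52 in ad libitum mice. Insig1 was at 9.44, 9.19, 10.11, 9.24 and 9.92 against a highest value of 9.27 in ad libitum mice, a difference of 0.69 (adjusted p = 0.110). Its other probes gave 0.74, with overlap, and 1.09, without overlap. The same restricted mice stood high in these genes. Mouse 3 was the highest restricted mouse for Elovl6, Scd1, Fasn, Slc25a1 and Insig1, and mouse 1 was the lowest for Elovl6, Scd1, Fasn and Slc25a1. The list score was 0.78 in restricted mouse 3 and 0.56 in mouse 5, and -0.01, 0.17 and -0.10 in mice 1, 2 and 4, against -0.39 to 0.01 in ad libitum mice.

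Fat cells make the same enzymes, so adipocyte markers are given beside this group. Of 16 markers 11 were measured, 3 were higher and 8 lower in restricted mice, none passed and 1 had an unadjusted p under 0.05, with a median of -0.07. This median ran from -0.25 to 0.11 when each mouse was left out in turn. Within chips 1 to 4 it was -0.90, 0.49, 0.66 and 0.23, above 0 on 3 of them. The adipocyte score ran from -0.76 to 0.43 in restricted and from -0.92 to 0.67 in ad libitum mice. Retn and Fabp4 were detected on none of the 14 arrays. Restricted mouse 1, the lowest of its group for Elovl6, had the adipocyte score of -0.76, and ad libitum mouse 2, with the score of 0.67, had 5.19 for Elovl6, the lowest of all 11 mice. The part of fat cells in the lipid genes was not tested beyond these values.

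**Figure D2:**
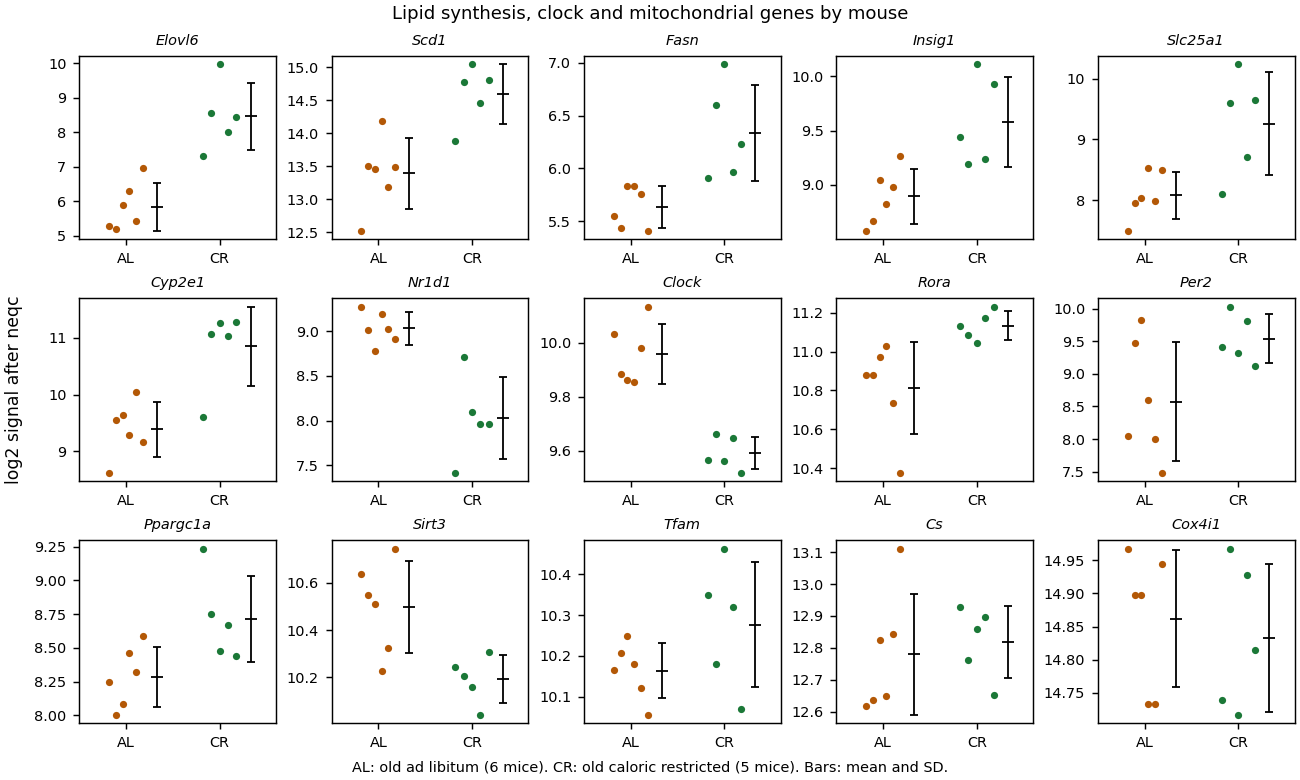
Log2 signal of 15 genes in each mouse, ad libitum (AL, 6 mice, orange) and restricted (CR, 5 mice, green), with mean and SD as black bars and a separate axis for each gene. The groups do not overlap for Elovl6, Fasn, Nr1d1, Clock and Rora, and they overlap for the mitochondrial genes of the bottom row.

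Genes switched on by fasting, through the PPAR receptors among others, showed no call. Of 22 measured members 13 were higher and 9 lower, and none passed (limma, with 4 at an unadjusted p under 0.05). With young mice in the fit 1 passed, where 3.29% of all genes did. Acot1, a cytosolic acyl-CoA thioesterase, was at 8.96, 8.81, 9.58, 9.85 and 8.30 in restricted mice and ran from 6.30 to 9.08, with a median of 7.12, in ad libitum mice. The groups overlapped, through ad libitum mice 1 and 2, and the difference was 1.70 ± 0.48 (SE, adjusted p = 0.122). Pdk4, a kinase that shuts off pyruvate dehydrogenase, differed by 0.92 (95% confidence interval 0.07 to 1.78, adjusted p = 0.273), and Ucp3, a mitochondrial uncoupling protein homologue of muscle, by 0.72 (-0.08 to 1.51, adjusted p = 0.361). In both genes restricted mouse 4 was the highest mouse, at 14.20 and 10.33. Without that mouse the median of the list fell from 0.15 to 0.07.

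The complement genes C4a and C4b were lower in restricted mice. C4a and C4b are neighbouring, nearly identical genes of complement component 4, a protein of innate immunity that tags particles for clearance. RefSeq lists C4a as a transcribed pseudogene, and the arrays may not tell the pair apart, so their values count as 1 signal. C4a was at 8.58, 9.11, 8.85, 8.56 and 9.25 in restricted mice and between 9.86 and 10.14, with a median of 9.95, in ad libitum mice. C4b was at 8.25, 8.86, 8.59, 8.41 and 9.18 against a range of 9.53 to 10.03 with a median of 9.73. In both genes every restricted mouse lay below every ad libitum mouse, and the spread was wider in restricted mice. Both fell by 1.09 on the log2 scale, a 2.13-fold change, with SEs of 0.13 and 0.15 (limma, adjusted p = 0.00414 and adjusted p = 0.0121). A second probe of C4a gave -1.01.

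Of 13 measured complement and acute phase genes 9 were lower and 4 higher, with a median of -0.27. The groups did not overlap in 23.1% of them, with C4a and C4b counted separately, against 2.41% of all genes tested, of which 0.276% passed. On chip 4 the median was 0.08, and on the other chips it ran from -0.38 to -0.11. The members that passed were C4a and C4b, which count as 1 signal, and the groups did not overlap in these and in Hp, encoding haptoglobin, which binds free haemoglobin. Its values were 8.08, 9.22, 9.11, 8.26 and 9.39 in restricted mice and 9.56 to 10.56, with a median of 10.24, in ad libitum mice. It missed the threshold at a difference of -1.33 ± 0.26 (SE, adjusted p = 0.0533), and its other probes gave -1.08 and -1.03, in which the groups overlapped. Cfb, complement factor B of the alternative pathway, differed by -0.61 (adjusted p = 0.131).

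Casp1 and Casp4, caspases of the inflammatory response, were lower in restricted mice. Casp1, the caspase of the inflammasome that cleaves interleukin-1 beta, was at 7.09, 7.08, 6.95, 6.65 and 7.06 in restricted mice and at 7.45 to 7.62, with a median of 7.54, in ad libitum mice. It fell 1.48-fold, by 0.57 ± 0.09 (SE) on the log2 scale (limma, adjusted p = 0.0310). Casp4, the mouse caspase-11 that senses intracellular lipopolysaccharide, was detected on 7 of 7 arrays of ad libitum mice, at 6.13 to 6.45, and on none of restricted mice, so that it was at least 1.24-fold lower (adjusted p = 0.0310). Neither gene overlapped between the groups. Casp4 passed the detection filter through ad libitum arrays alone, so its separation rests on values near background in restricted mice. Of 18 inflammasome and NF-kB genes 15 were lower and 3 higher, 2 passed and the groups did not overlap in 4, with a median of -0.30. Those 4 are 22.2% of the list, against 2.41% of all genes tested, of which 0.276% passed. The others without overlap were Icam1, an adhesion molecule for leukocytes (-0.55, adjusted p = 0.0547), and Relb, a subunit of NF-kB (-0.31, adjusted p = 0.119). The score of this list ran from -0.34 to -0.09 in restricted and from 0.05 to 0.23 in ad libitum mice.

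The chemokine Ccl5, which attracts T cells and monocytes, was detected on 6 of 7 arrays of ad libitum mice, with values from 5.85 to 7.20 and a median of 6.47, and on none of restricted mice, at 4.99 to 5.66. It was at least 1.37-fold lower under restriction (adjusted p = 0.0310). Cxcl16, a chemokine that also exists as a membrane-bound form, was at 5.91, 6.03, 6.03, 5.79 and 5.89 in restricted mice, detected on 3 of 7 arrays, and at 6.22 to 6.90 in ad libitum mice. It fell 1.55-fold (adjusted p = 0.0375), with no overlap. Ccl7, a monocyte chemokine that did not pass (adjusted p = 0.0744), was not detected in restricted mice and was at least 1.25-fold lower. Among 15 measured chemokines and cytokines 12 were lower and 3 higher, 2 passed and the groups did not overlap in 3, with a median of -0.46. The 3 without overlap are 20% of the list, against 2.41% of all genes tested, of which 0.276% passed. Ccl5 and Ccl7 passed the detection filter through ad libitum arrays alone, so their separation rests on values near background in restricted mice. On chip 4 the median was 0.03, and on the other chips it ran from -0.90 to -0.28.

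MHC class II genes shared 1 direction but gave no call. Each of the 7 measured MHC class II genes, which display peptides from outside the cell to helper T cells, was lower in restricted mice, by 0.57 to 0.89 on the log2 scale, and had an unadjusted p under 0.05. None passed (limma), and 6 passed with young mice in the fit, against 3.29% of all genes. The groups did not overlap in 1 of the 7, against 2.41% of all genes. That 1 was H2-DMb1, part of the peptide-loading chaperone H2-DM, at 6.54, 7.02, 6.62, 6.13 and 6.97 in restricted mice against 7.24 to 7.85, with a median of 7.47, in ad libitum mice. Its difference was -0.85 ± 0.17 (SE, adjusted p = 0.0533). Cd74, the invariant chain, was at 9.47, 9.86, 9.19, 9.38 and 10.13 against 9.98 to 10.88, with a median of 10.65. Here restricted mouse 5 lay above ad libitum mouse 4, and the difference was -0.89 (adjusted p = 0.0744). The class II score was -0.76 in restricted mice 3 and 4, but -0.07 and 0.01 in restricted mice 2 and 5, where it met the lowest ad libitum mice at -0.08 and 0.00. Of 15 measured genes of MHC class I and antigen processing, which display peptides from inside the cell, 12 were lower and 3 higher, with none past the threshold (limma, 2 at an unadjusted p under 0.05) and a median of -0.20. Their differences lay between -0.46 and 0.22, and the groups overlapped in all 15. Without ad libitum mouse 1 the median was -0.06.

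Of 20 interferon-stimulated genes 19 were lower and none passed (limma, 8 at an unadjusted p under 0.05), with a median of -0.38. Without ad libitum mouse 1 the median was -0.22. Ifi27l2a, a gene induced by type I interferon, did not overlap between the groups and differed by -0.92 (adjusted p = 0.0602), with 11.26 to 12.35 in restricted and 12.43 to 13.13 in ad libitum mice. In this list 10% of the genes did not overlap, against 2.41% of all genes tested. For 15 genes of MHC class I and antigen processing the median of -0.20 became -0.06 without ad libitum mouse 1. None of these passed either, and 2 had an unadjusted p under 0.05.

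Among macrophage and lymphocyte markers 1 of each passed, Mpeg1 and Ccl5, both lower. Ccl5 is the chemokine gene already described, and it passed the detection filter through ad libitum arrays alone. Mpeg1, encoding perforin-2, a pore-forming protein of macrophages, was at 7.53, 8.15, 7.31, 7.39 and 7.54 in restricted mice and at 8.29 to 9.41, with a median of 8.76, in ad libitum mice. The groups were separated by a small gap between restricted mouse 2 and ad libitum mouse 2, and Mpeg1 fell 2.33-fold (log2 difference -1.22 ± 0.21 SE, limma, adjusted p = 0.0331). Of 28 macrophage and myeloid markers 22 were measured, and 20 of these were lower and 2 higher, with a median of -0.40. On chip 4 the median was 0.04, and on the other chips it ran from -0.75 to -0.16. Mpeg1 passed, and the groups also did not overlap for Lgals3, encoding galectin-3, which differed by -0.82 (adjusted p = 0.0567). Mpeg1 and Lgals3 are 9.09% of the measured markers, against 2.41% of all genes without overlap. Over all genes tested 0.276% passed. The macrophage score ran from -0.54 to 0.09 in restricted and from -0.34 to 0.52 in ad libitum mice, so the groups overlapped. Itgam, Itgb2, Fcgr1, Clec4n and Ptprc were detected on none of the 14 arrays. Tyrobp, a signalling adaptor of myeloid cells, differed by -0.72 (adjusted p = 0.111). Of 21 lymphocyte markers 3 were measured, which were Ccl5, Cd52 (-1.21, adjusted p = 0.0547) and Cd8b1, while Cd3e, Cd3d, Cd3g, Cd4 and Cd8a were detected on no array. The part of immune cell number in the complement, chemokine and MHC class II values was not tested.

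Further falls were those of Mmp12, Bcl2a1d, Ear3 and Csprs, most of them known from immune cells. Mmp12, the macrophage elastase, was at 4.60 to 4.85 and detected on no array of restricted mice, and at 5.47 to 6.87, with a median of 6.42, in ad libitum mice, so it was at least 1.26-fold lower (adjusted p = 0.0213). Bcl2a1d, an anti-apoptotic relative of Bcl2 found in leukocytes, was likewise not detected under restriction and at least 1.17-fold lower (adjusted p = 0.0357). Ear3, an eosinophil-associated ribonuclease, was at 6.08, 6.05, 6.09, 5.90 and 5.91 in restricted and at 6.68 to 7.73 in ad libitum mice (-0.92, adjusted p = 0.0451). Csprs had the smallest p of all genes tested, but it passed the detection filter through ad libitum arrays alone. It was at 4.83, 5.26, 4.68, 4.71 and 4.86 in restricted mice, with detection on none of their arrays, and at 5.87 to 6.58 in ad libitum mice, detected on 5 of 7 (at least 1.17-fold lower, adjusted p = 0.00392). Bcl2a1d, Ear3 and Csprs have near-identical copies in the mouse genome, so the signal may belong to more than 1 gene.

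**Figure D3:**
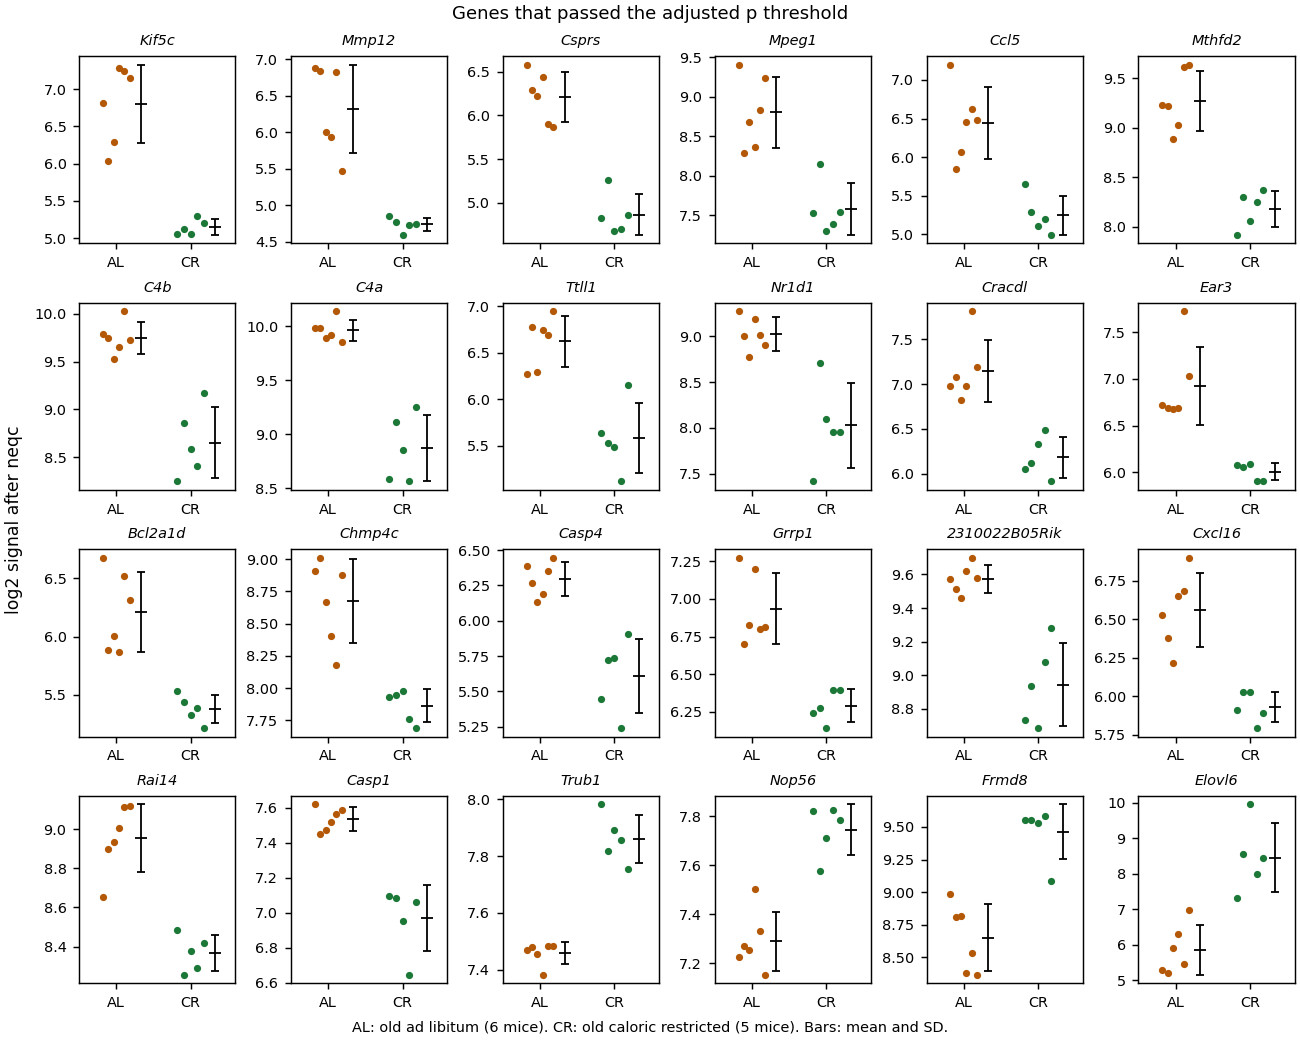
Log2 signal of the 24 genes that passed the threshold, in each ad libitum (AL, 6 mice, orange) and restricted mouse (CR, 5 mice, green), with mean and SD as black bars, ordered by log2 difference from the most negative, with an axis for each gene. In each panel the groups do not overlap, and 20 of the panels show lower values under restriction.

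Mthfd2, a mitochondrial enzyme of the folate cycle low in most adult tissues, was detected on all 14 arrays and passed without each mouse in turn. Its values were 7.92, 8.30, 8.06, 8.25 and 8.37 in restricted mice and 8.89 to 9.64, with a median of 9.23, in ad libitum mice. The groups lay clearly apart, and Mthfd2 fell 2.13-fold, by 1.09 ± 0.14 (SE) on the log2 scale (limma, adjusted p = 0.00815), with -0.99 for a second probe. Mthfd2 is a target of the integrated stress response, and of the 17 measured genes of that response and of amino acid synthesis it alone passed, with 7 higher, 10 lower and a median of -0.03. Trib3, a pseudokinase induced by stress, also did not overlap between the groups and differed by -0.60 (adjusted p = 0.0602). Mthfd2 and Trib3 are 11.8% of the list, against 2.41% of all genes without overlap. Over all genes tested 0.276% passed. Atf5, a transcription factor of the mitochondrial stress response, differed by -0.31 (adjusted p = 0.234) and Psat1, an enzyme of serine synthesis, by -0.37 (adjusted p = 0.277).

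Kif5c, a kinesin heavy chain best known from neurons, was at 5.06, 5.12, 5.05, 5.30 and 5.21 in restricted mice, on none of whose arrays it was detected. In ad libitum mice it was detected on 7 of 7 arrays, at 6.04 to 7.28 with a median of 6.98. It was at least 1.76-fold lower under restriction (adjusted p = 0.0077). Ttll1, a tubulin polyglutamylase, was detected on 1 of 7 arrays of restricted mice and fell 2.05-fold (adjusted p = 0.0310), but a second probe gave a smaller difference of -0.50 in which the groups overlapped. Chmp4c, a subunit of the membrane-cutting ESCRT-III complex, fell 1.76-fold (adjusted p = 0.0346), and Rai14, an actin-binding ankyrin repeat protein, fell by 0.59 on the log2 scale (adjusted p = 0.0310). Cracdl fell 1.95-fold, Grrp1 1.56-fold and 2310022B05Rik 1.55-fold.

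The 3 rises besides Elovl6 were smaller. Frmd8, a FERM domain protein that binds the iRhom proteins, was at 9.55, 9.56, 9.53, 9.58 and 9.09 in restricted and at 8.37 to 8.99, with a median of 8.68, in ad libitum mice, a rise of 1.75-fold (adjusted p = 0.0310). Trub1, a pseudouridine synthase that modifies RNA, was at 7.98, 7.82, 7.89, 7.86 and 7.75 against 7.38 to 7.48. Its rise of 1.32-fold (adjusted p = 0.0310) was the smallest difference that passed, and a second probe gave 0.21, in which the groups overlapped. Nop56, a core protein of the particles that methylate ribosomal RNA, was at 7.82, 7.58, 7.71, 7.83 and 7.79 against 7.15 to 7.50 and rose 1.37-fold (adjusted p = 0.0394). The 35 measured cytosolic ribosomal protein genes had a median of 0.02, and none passed, with 3 at an unadjusted p under 0.05.

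Of 12 measured clock genes 1 passed, Nr1d1, which was lower in restricted mice. Nr1d1, encoding REV-ERB alpha, a repressor that answers to the daily cycle and to feeding, was at 7.42, 8.71, 8.10, 7.96 and 7.96 in restricted mice and at 8.77 to 9.27, with a median of 9.01, in ad libitum mice. It fell 2.0-fold (log2 difference -1.0 ± 0.18 SE, limma, adjusted p = 0.0375), with restricted mouse 2 close to the ad libitum range. Clock, the activator that pairs with Arntl, was at 9.57, 9.66, 9.56, 9.65 and 9.52 against 9.85 to 10.13, a narrow but complete separation of -0.37 (adjusted p = 0.0547). Rora, an activator that binds the same DNA element as Nr1d1, was higher in each restricted mouse, by 0.32 (adjusted p = 0.185). Per2, a repressor of the clock, was at 9.42, 10.03, 9.32, 9.81 and 9.12 against 7.48 to 9.83 and differed by 0.97 (adjusted p = 0.232). Over the list 5 genes were higher and 7 lower, and the groups did not overlap in 3, with a median of -0.12. These 3 are 25% of the list, against 2.41% of all genes tested, of which 0.276% passed. A difference in the hour of sampling or feeding between the groups was not tested, since the sources give neither.

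**Figure D4:**
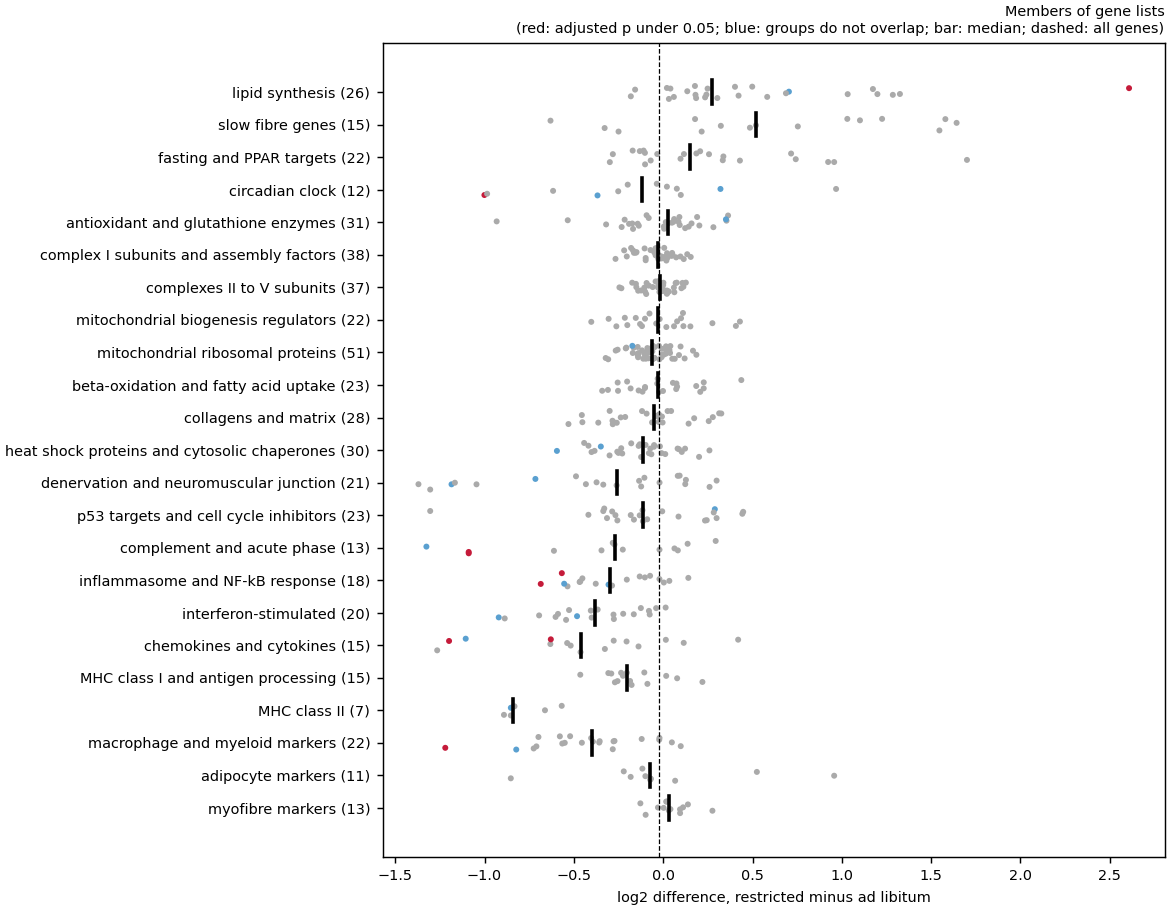
Each row is a gene list with its number of measured members, each point a member at its log2 difference between restricted and ad libitum mice, and each black bar the median of the list, beside the median of all genes tested (-0.02, dashed). Lipid synthesis lies to the right (median 0.28), MHC class II (-0.84), macrophage markers (-0.40) and chemokines (-0.46) to the left, and the respiratory complexes close to the dashed line (-0.03 and -0.02).

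No gene of the respiratory chain passed the threshold in either direction. The respiratory chain passes electrons from complex I to complex IV and drives ATP synthase, complex V. Of 38 measured genes of complex I and its assembly 13 were higher and 25 lower, with a median of -0.03, and of 37 genes of complexes II to V 16 were higher and 21 lower, with a median of -0.02. Of these 75 genes 3 (4.0%) had an unadjusted p under 0.05, against 16.1% of all genes. None of the 75 passed (limma) and in none did the groups separate, where 0.276% and 2.41% of all genes did. At those shares, finding none among these 75 genes says little about them. Their log2 differences lay between -0.27 and 0.15, with a median SE of 0.09. The largest was that of Ndufaf3, an assembly factor of complex I (adjusted p = 0.240). Atp5d, a subunit of ATP synthase, differed by -0.24 (adjusted p = 0.189) and Ndufab1, the mitochondrial acyl carrier protein, by -0.22 (adjusted p = 0.232). Other probes of Ndufab1 gave -0.13, 0.04 and -0.33.

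Over 7 mitochondrial lists, which add biogenesis, fusion and mitophagy, the citric acid cycle, beta-oxidation and mitochondrial ribosomes, 206 genes were measured. None passed, against 0.276% of all genes, and none passed with young mice in the fit, against 3.29%. An unadjusted p under 0.05 was found for 20 (9.71%), against 16.1% of all genes. Of the 206 genes 77 were higher and 129 lower, and 189 differed by less than 0.25 on the log2 scale. The groups did not overlap in 1, a mitochondrial ribosomal protein gene, against 2.41% of all genes. Cs, citrate synthase, a usual measure of mitochondrial content, was at 12.93, 12.76, 12.86, 12.90 and 12.65 in restricted mice and at 12.62 to 13.11, with a median of 12.74, in ad libitum mice. Cox4i1, a subunit of complex IV, was at 14.74, 14.97, 14.72, 14.93 and 14.81 against 14.73 to 14.97. The groups overlapped in both genes. Cs differed by 0.04 (95% confidence interval -0.18 to 0.26, adjusted p = 0.888) and Cox4i1 by -0.03 (-0.20 to 0.15, adjusted p = 0.898).

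Among 22 regulators of mitochondrial biogenesis 10 were higher and 12 lower, 6 had an unadjusted p under 0.05 and none passed. Ppargc1a, the coactivator PGC-1 alpha that drives mitochondrial genes, was at 9.23, 8.75, 8.48, 8.67 and 8.44 in restricted mice and at 8.00 to 8.59, with a median of 8.28, in ad libitum mice. Restricted mouse 1 was the highest, the groups overlapped, and the difference was 0.43 (95% confidence interval 0.11 to 0.75, adjusted p = 0.189). Tfam, which packages and transcribes mitochondrial DNA, differed by 0.11 (-0.07 to 0.29, adjusted p = 0.526), and Nrf1, a nuclear activator of respiratory genes, by -0.04 (-0.22 to 0.14, adjusted p = 0.861). Mterf1a, of the mitochondrial transcription termination factors, differed by -0.40 (adjusted p = 0.157), and Tfb1m, a mitochondrial ribosomal RNA methyltransferase, by -0.26 (adjusted p = 0.25). The sirtuins, NAD-dependent deacylases, had opposite signs. Sirt3, which acts in mitochondria, was at 10.25, 10.21, 10.16, 10.04 and 10.31 against 10.23 to 10.74 (-0.31, 95% confidence interval -0.52 to -0.09, adjusted p = 0.169), and Sirt1, which acts in the nucleus, differed by 0.28 (-0.07 to 0.62, adjusted p = 0.423). Mfn2, a protein of mitochondrial fusion, differed by -0.13 (-0.31 to 0.05, adjusted p = 0.461).

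Of 31 antioxidant and glutathione enzymes 19 were higher and 12 lower, none passed (limma, 4 at an unadjusted p under 0.05), and the groups did not overlap for Gclm. This gene alone is 3.23% of the list, near the 2.41% of all genes without overlap. Gclm, a subunit of the enzyme that starts glutathione synthesis, differed by 0.35 (adjusted p = 0.112). Sod2, the mitochondrial superoxide dismutase, differed by -0.14 (95% confidence interval -0.34 to 0.05, adjusted p = 0.459) and Cat, catalase, by 0.36 (-0.01 to 0.74, adjusted p = 0.328), while a second probe of Cat gave -0.04. Mt2, a metallothionein, differed by -0.93 (adjusted p = 0.0547), with 5.22, 6.13, 5.52, 5.64 and 5.57 in restricted mice, detected on 1 of 7 arrays, and 6.08 to 6.98 in ad libitum mice. Among enzymes that act on foreign compounds and retinoids, Cyp2e1, an ethanol-inducible cytochrome P450, was at 9.61, 11.06, 11.26, 11.03 and 11.29 against 8.62 to 10.04. Restricted mouse 1 alone lay within the ad libitum range, and the difference was 1.47 (adjusted p = 0.0547).

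No denervation marker passed the threshold. Of 21 measured members of the denervation list 15 were lower in restricted mice and 6 higher, none passed (limma, 7 at an unadjusted p under 0.05), and the groups did not overlap in 2, with a median of -0.26. The 2 without overlap are 9.52% of the list, against 2.41% of all genes tested. Without ad libitum mouse 6 the median was -0.10. Myh8, the perinatal myosin heavy chain that returns in denervated fibres, was at 7.25, 7.50, 7.0, 6.97 and 6.89 in restricted mice and at 7.69 to 9.26, with a median of 8.25, in ad libitum mice. The groups did not overlap, the difference was -1.18 ± 0.23 (SE, adjusted p = 0.0528), and other probes gave -0.77 and -0.30. Cdkn1a, the cell cycle inhibitor p21, was at 7.63, 8.48, 8.71, 9.22 and 8.57 against 9.09 to 11.18 and differed by -1.30 (adjusted p = 0.111). It was highest in ad libitum mice 5 and 6, at 10.23 and 11.18, and its other probes gave -1.21, without overlap, and -1.15, with overlap. Its relatives Cdkn1b and Cdkn1c, also inhibitors of the cell cycle, differed the other way, by 0.44 (adjusted p = 0.139) and 0.29 (adjusted p = 0.153), and ad libitum mouse 6 was the lowest mouse for both, at 5.40 and 10.34. Of 23 measured p53 targets and cell cycle inhibitors 8 were higher and 15 lower, none passed (limma, 11 at an unadjusted p under 0.05), and the median was -0.12. Over all genes tested 16.1% had an unadjusted p under 0.05. Timp1, an inhibitor of matrix metalloproteinases, had the largest negative difference of all genes tested, -1.81 ± 0.41 (SE), but missed the threshold (adjusted p = 0.0744). It was at 5.08, 6.18, 5.55, 5.53 and 5.01 in restricted mice, detected on 2 of 7 arrays, and at 5.86, 7.26, 6.82, 7.04, 7.84 and 8.86 in ad libitum mice 1 to 6. Restricted mouse 2 thus lay above ad libitum mouse 1, and mouse 6 was the highest. Mmp3, stromelysin-1, differed by -1.36 without overlap (adjusted p = 0.0547), and was detected on 1 of 7 arrays of restricted mice.

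Among the other genes whose groups did not overlap, the largest positive differences were in Dkk3, a secreted relative of Wnt inhibitors (1.64, adjusted p = 0.131), and Cntnap2, a neurexin family adhesion protein of axons (1.28, adjusted p = 0.0744). In Dkk3 the values were 11.82, 12.09, 11.76, 12.35 and 12.57 in restricted mice and ran from 8.37 in ad libitum mouse 6 and 9.70 in mouse 5 to 11.66 in mouse 1. Dusp26, a phosphatase, differed by 0.99 (adjusted p = 0.0533), Dlk1, a regulator of muscle and fat cell differentiation, by 0.85 (adjusted p = 0.0547), and Fbp2, the muscle fructose bisphosphatase, by 0.94 (adjusted p = 0.111). Hsd11b1, which regenerates active glucocorticoid inside cells, differed by 0.65 (adjusted p = 0.0547), with 0.77 and 0.70 for its other probes, none of which overlapped. Nrip1, a corepressor of nuclear receptors, differed by 0.69 (adjusted p = 0.0547). Bcl2, an inhibitor of apoptosis, was at 7.25, 7.24, 7.28, 7.33 and 7.14 in restricted mice and at 7.48 to 9.11 in ad libitum mice (-0.95, adjusted p = 0.0654), with -1.0 for a second probe.

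Slow fibre genes had the highest list median, 0.52, but varied within both groups. Of 15 measured members 12 were higher and 3 lower, none passed (limma, 3 at an unadjusted p under 0.05), and the groups overlapped in each. Myh7, the slow myosin heavy chain, was at 7.97, 7.32, 8.42, 6.38 and 4.78 in restricted mice and at 4.60 to 5.90, with a median of 5.50, in ad libitum mice (1.64 ± 0.54 SE, adjusted p = 0.171). It was detected on 5 of 7 arrays of restricted and on 1 of 7 of ad libitum mice. Without restricted mouse 5 the median of the list was 0.96, without ad libitum mouse 5 it was 0.32, and within chips it ran from -0.87 to 1.36, below 0 on 2 of the 4. Fast fibre genes had a median of 0.02.

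**Figure D5:**
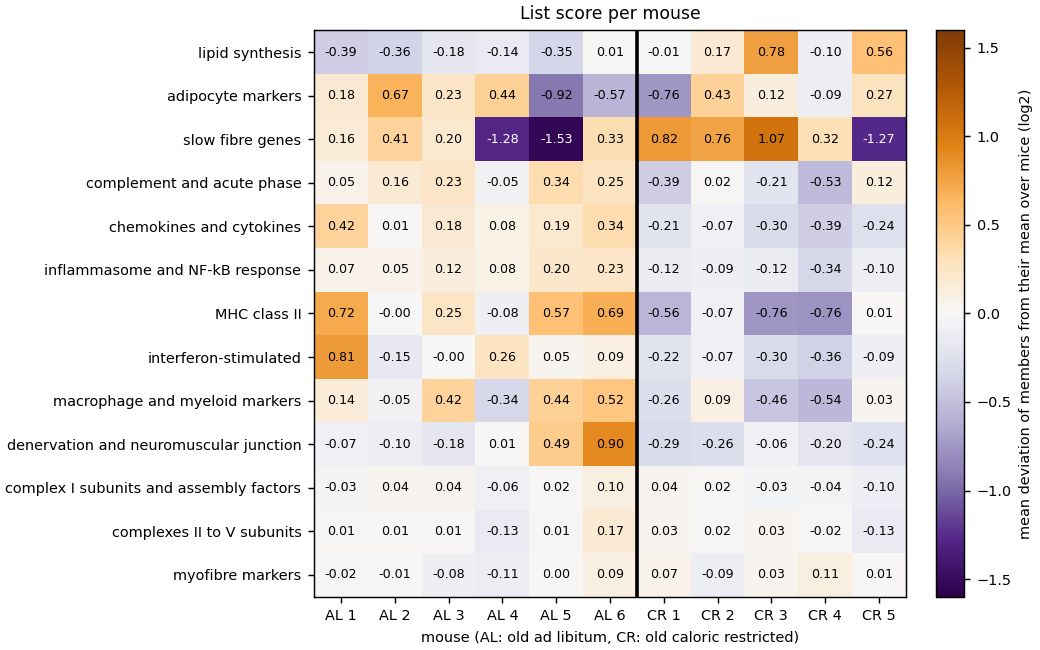
List score of each mouse, the mean log2 deviation of the measured members from their mean over 11 mice, for 6 ad libitum (AL) and 5 restricted (CR) mice, with orange above and purple below 0. Inflammasome and chemokine scores are above 0 in each ad libitum mouse and below 0 in each restricted mouse, interferon-stimulated genes stand out in AL 1 (0.81), denervation in AL 5 and 6 (0.49 and 0.90), and slow fibre genes vary within both groups.

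Other lists held no gene that passed, where 0.276% of all genes did. Of 30 heat shock proteins and chaperones 23 were lower and 7 higher, with a median of -0.11 and 8 at an unadjusted p under 0.05. Hspa1l differed by -0.35 (adjusted p = 0.111) without overlap, and Hspb1, the small heat shock protein 27, by -0.44 (adjusted p = 0.152). Groups did not overlap in 6.67% of this list, against 2.41% of all genes. Of 26 genes of insulin and IGF signalling 17 were higher and 9 lower, 4 had an unadjusted p under 0.05, and the median was 0.06. Igf1r, a receptor tyrosine kinase for IGF-1, did not overlap between the groups, with 7.57 to 7.84 in restricted and 7.0 to 7.51 in ad libitum mice (0.39, adjusted p = 0.0973). Igf1r was the only member without overlap, 3.85% of the list and near the 2.41% of all genes. Of 27 proteasome subunits 17 were higher, with a median of 0.06. Collagens and matrix genes had a median of -0.05 over 28 genes, and autophagy and lysosome genes -0.04 over 31.

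For 4 of the genes that passed, the level in the 6 young mice is set beside those of the old groups, with no test and chosen after the values were seen. Elovl6 had a mean of 5.90 in young, 5.85 in ad libitum and 8.46 in restricted old mice. C4a was at 9.11, 9.96 and 8.87 in the same order. For Mmp12, not detected under restriction, the mean was 6.47 in young and 6.32 in ad libitum mice. Nr1d1 was at 9.29 in young, 9.03 in ad libitum and 8.03 in restricted mice.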

How the data were processed

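Per the labels' protocols, a QIAGEN column kit gave total RNA, which was amplified and biotin labelled with an Ambion kit. For each array the deposited table gives the average signal intensity of a probe and its detection p-value, per the file headers. The submitters' processing notes name GenomeStudio, and no source states a version or a normalization. Linear intensity values in the authors' matrix, with array medians of 98.60 to 98.66 and a correlation of at least 0.999 with the signals on the log2 scale, served as an alternative.

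The neqc function of limma 3.58.1 (R 4.3.3, offset 16) corrected background and quantile normalized all 24 arrays together. Median signals of the 14 arrays compared ran from 84.2 to 110.8, and the number of arrays limits the precision. Probes detected at p under 0.01 on at least 5 of the 14 arrays were kept, 14660 in all, of which 1893 had no single gene symbol and were left out. The platform annotation gave 1 symbol for 34885 probes, several for 18 and none for 10378, and the symbols of 34807 probes checked through the entrez identifier did not change. Each gene was represented by its brightest kept probe on average, for 8688 genes, 2941 of which had several. Arrays of a mouse were averaged, and the 11 mice were compared with lmFit and eBayes, two-sided, with Benjamini-Hochberg adjustment at 0.05. For a gene detected on no array of a group, a bound on the fold replaced the fold: the dim group's value was set, array by array, to the lowest signal of any detected probe or to its own signal where that was higher. Intervals of 95% use the moderated SE.

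The members and the 48 gene lists were chosen with earlier results of these data known, so no list is independent evidence. Lists are described by counts and medians, with no set test. Named were the 20 largest rises and falls that passed, members of each list that passed or had the 4 smallest p, up to 10 genes in each direction without overlap, and 12 mitochondrial and stress genes. Fewer were named where a group shows little. On simulated data of 8688 genes 58% of changes of 0.5 and 94% of changes of 1 (log2) were recovered, in genes that vary independently, unlike real ones. The changes were planted in genes drawn at random, with normal noise. In the real data 58 genes differed by more than 2-fold and 11 of them passed, so the simulated shares do not carry over to the genes named here. Promoter windows are from RefSeq, GRCm38.p6. Alternatives were other background corrections, scalings, detection filters, probe rules, array blocks, priors, weights and groups in the fit, and leaving out each mouse. Fitting mice 1 to 5 of both groups without a block was chosen after seeing the data. Figures were drawn with matplotlib 3.10.9.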

Additional observations from a re-analysis of the deposited data

Results flagged for a closer look

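In 8 of 186 groups of values of named genes 1 mouse lay far from the others. Chance gives about 1 group in 20, so the number of such groups is no more than chance gives. In restricted mice, mouse 5 was low for Frmd8 (9.09, next 9.53) and mouse 1 for Cyp2e1 (9.61, next 11.03). Restricted mouse 2 was high for Mpeg1 (8.15, next 7.54) and Cd52 (7.74, next 6.70), and restricted mouse 3 for Mfn2 (14.03, next 13.87). In ad libitum mice, mouse 5 was high for Cracdl (7.81, next 7.19) and Ear3 (7.73, next 7.03), and mouse 4 was low for Trub1 (7.38, next 7.46). Restricted mouse 2 also had the highest macrophage score of its group, 0.09. Each of these values belongs to a mouse kept in the tests.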

How the results depend on the processing

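Each of the 24 genes kept its direction under every alternative in which it was tested. Their number did not hold. More genes passed with 75th percentile scaling (42, 36 lower), 14 arrays with the mouse as a random block (82, 27 higher and 55 lower), 17 mice in the fit (286, 83 higher and 203 lower), a trend and robust prior (45, 10 higher and 35 lower) and array weights (131, 37 higher and 94 lower). With the chip added as a term to the fit with the mouse as a random block 26 passed, 7 of them higher, and 17 of the 24 were kept. Fewer passed without background correction or with the authors' values (14 in each, 2 higher and 12 lower), with no detection filter (8 of 19057, 1 higher and 7 lower) and with detection on all 14 arrays (13 of 7543, 10 lower), which tests only 13 of the 24 and kept those 13. Apart from the number of genes tested under the last filters, the cause of these changes was not tested. Leaving out each mouse in turn gave 4 to 49 genes, 0 to 12 higher and 4 to 37 lower, and 241 to 530 genes without overlap, since fewer mice overlap less. Mouse numbers did not pair the samples: same-numbered mice had correlations of their deviations from -0.169 to 0.212, and 1 of 10 samples correlated best with their own number. With the replicate block on mice 1 to 5 of both groups 10 genes passed, 3 higher and 7 lower, and 7 of the 24 were kept. The same 10 mice without a block, chosen after seeing the data, gave 10, 2 higher and 8 lower. Among single genes the difference of Cox4i1 changed sign when mice were left out, from -0.0627 to 7.12e-05. Low signals limit the genes near background: 6 of the 24 were detected on no array of restricted mice. These were Csprs, Kif5c, Mmp12, Casp4, Ccl5 and Bcl2a1d. They passed the detection filter through ad libitum arrays alone, so their p-values rest on values near background in restricted mice.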
